A study of Arabidopsis thaliana with 6 samples.

Results

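The genes described here are 9 DNA methylation writers and erasers of *Arabidopsis thaliana*, taken by locus from the 32243 genes of the deposited tables. They were the methyltransferase genes *MET1* (AT5G49160), *CMT2* (AT4G19020), *CMT3* (AT1G69770) and *DRM2* (AT5G14620), the factors *VIM1* (AT1G57820), *DDM1* (AT5G66750) and *SUVH4* (AT5G13960) that methylation depends on, and the DNA glycosylase genes *ROS1* (AT2G36490) and *DME* (AT5G04560). Their RNA was measured by RNA-seq in fully grown leaves, with 1 library from each of 3 *flpl1* and 3 Col-0 individuals of equal age. Per the paper, the *flpl1* plants were picked by their mutant phenotype and by additional DNA in flow cytometry. The paper also reports that *flpl1* flowers much later than Col-0. Plants of equal age can thus differ in developmental stage, which cannot be told apart from genotype here. The *flpl1* line (C30-81-as6) was selected after C-ion irradiation of Col-0 seeds. It carries an additional copy of Chr. 2 together with rearrangements and other mutations, so the additional chromosome and the rest of the mutant genome cannot be told apart as sources of a difference. It is a single line, and Col-0 is its unirradiated background.

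Plant DNA is methylated on cytosines in the contexts CG, CHG and CHH, where H is any base but G. MET1 copies CG methylation onto the new strand after replication, VIM1 binds the half-methylated DNA that replication leaves, and DDM1 is a chromatin remodeler that opens heterochromatin to the methyltransferases. CMT3 methylates CHG sites where SUVH4 has methylated histone H3, CMT2 acts mainly on CHH sites of heterochromatin, and DRM2 is guided by small RNAs. ROS1 and DME cut methylated cytosines out of DNA; ROS1 works throughout the plant, and DME is best known from the central cell of the ovule. Methylation itself was not measured in these libraries.

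The libraries held 20049387 to 24081121 counts on genes in *flpl1* and 19465078 to 24633070 in Col-0. A gene was called changed at a Benjamini-Hochberg adjusted p under 0.05 in edgeR's quasi-likelihood test over the 18638 genes with enough counts, and a DEG if it also differed at least 2-fold. Levels are FPKM, counts divided by exonic length and library total, which are shares of the RNA and not amounts per cell. Log2 fold changes are *flpl1* over Col-0 on counts scaled by TMM. All 9 genes passed the filter on low counts, and none overlapped another gene or had a near-identical copy. The leaf markers *RBCS1A*, *RCA*, *CAB1*, *CA1* and *GAPB* summed to 36511.5 to 40180.7 FPKM in *flpl1* and to 13615.5 to 27942.3 FPKM in Col-0. They did not all move: *RBCS1A*, *CA1* and *GAPB* were changed and higher in *flpl1*, and *RCA* and *CAB1* did not pass the test. *CAB1* had 14005.50, 14601.44 and 16171.02 FPKM in *flpl1*, against 16225.07, 4396.44 and 6992.38 in Col-0. Of the shoot meristem markers, *WUS* and *CLV3* had no count in any library, and the 4 markers summed to at most 0.16 FPKM in *flpl1* and 0.14 FPKM in Col-0. The 4 floral organ markers did not move together: *AG* had 89, 82 and 99 counts in *flpl1* against 47, 43 and 33 in Col-0 and was a DEG, *AP3* had at most 8 counts in a library and was not tested, and the other 2 were DEGs lower in *flpl1*. *PI* had 0, 1 and 0 counts in *flpl1* against 164, 26 and 24 in Col-0, and *SEP3* had 0, 2 and 4 counts in *flpl1* against 33, 65 and 30 in Col-0.

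Of the 9 genes, 6 were changed and higher in *flpl1*, where 30.9% of all tested genes were higher, and 5 of them were DEGs, where 19.8% of all tested genes were. None was lower, where 30.7% of all tested genes were lower and 14.4% were DEGs in that direction. The 5 DEGs were the genes of CG maintenance (*MET1*, *VIM1*, *DDM1*) and the 2 chromomethylase genes *CMT3* and *CMT2*. *ROS1* was changed by less than 2-fold, and *DRM2*, *SUVH4* and *DME* did not pass the test. The median log2 fold change over the 9 genes was 1.11, and over all tested genes it was 0.00. Fewer cells of a type and less RNA per cell cannot be told apart in such whole-leaf libraries.

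**Figure D1:**
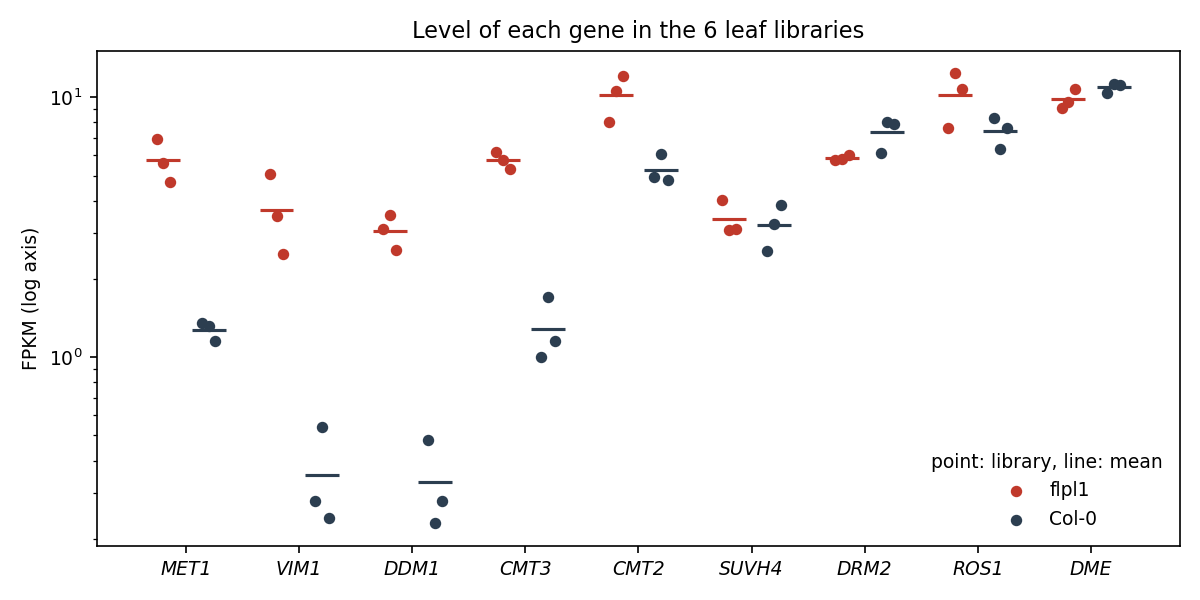
Level of each gene in the 3 *flpl1* libraries (red, left) and the 3 Col-0 libraries (dark, right), in FPKM on a log axis; points are libraries and lines are means. *MET1*, *VIM1*, *DDM1*, *CMT3* and *CMT2* are separated between the groups, and the *ROS1*, *SUVH4* and *DME* ranges overlap.

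*MET1* (Chr. 5, 19932230 to 19938369, plus strand) reached 6.88, 5.57 and 4.73 FPKM in *flpl1*, against 1.35, 1.32 and 1.15 FPKM in Col-0. These rest on 803, 541 and 509 counts in *flpl1*, against on 161, 149 and 108 counts in Col-0. Every *flpl1* plant lay far above every Col-0 plant, with the Col-0 plants close together and the *flpl1* plants more spread, with means of 5.73 ± 1.08 FPKM in *flpl1* and 1.27 ± 0.108 FPKM in Col-0 (SD, n = 3 plants). The difference was 4.98-fold (log2 fold change 2.31, SE 0.19; edgeR's quasi-likelihood test, Benjamini-Hochberg adjusted p = 0.000122).

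*VIM1* (Chr. 1, 21414170 to 21417946, minus strand) had 5.05, 3.50 and 2.49 FPKM in *flpl1*, against 0.28, 0.54 and 0.24 FPKM in Col-0. *DDM1* (Chr. 5, 26648951 to 26653073, plus strand) had 3.12, 3.51 and 2.58 FPKM in *flpl1*, against 0.48, 0.23 and 0.28 FPKM in Col-0. Both partners of *MET1* had few reads in Col-0, where *VIM1* had 15, 27 and 10 counts and *DDM1* had 31, 14 and 14 counts. In *flpl1* they had 262, 151 and 119 counts for *VIM1* and 195, 183 and 149 counts for *DDM1*. *VIM1* was 11.5-fold higher in *flpl1* (log2 fold change 3.53, SE 0.40) and *DDM1* differed by a log2 fold change of 3.32 (SE 0.36), and these were the largest changes of the 9 genes in this fit. With the few Col-0 counts the 95% intervals of the log2 fold changes were wide, 2.59 to 4.46 for *VIM1* and 2.48 to 4.17 for *DDM1* (edgeR's quasi-likelihood test, adjusted p = 0.000337 and 0.00029).

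*CMT3* (Chr. 1, 26248318 to 26253585, minus strand) had 6.16, 5.76 and 5.30 FPKM in *flpl1*, against 1.0, 1.71 and 1.15 FPKM in Col-0. Its log2 fold change of 2.32 (SE 0.20; edgeR's quasi-likelihood test, adjusted p = 0.000132) was close to that of *MET1*. *CMT2* (Chr. 4, 10414526 to 10421209, plus strand) had 8.02, 10.61 and 12.08 FPKM in *flpl1*, against 4.93, 6.04 and 4.82 FPKM in Col-0. It was the most abundant methyltransferase RNA of *flpl1* on this scale per length, and its change was the smallest of the 5 DEGs, 2.16-fold (log2 fold change 1.11, SE 0.16; adjusted p = 0.000944). The 95% interval of the log2 fold change of *CMT2* (0.73 to 1.49) lay below that of *CMT3* (1.86 to 2.78). Within a library, the FPKM ratio of *CMT2* to *CMT3* was 1.30, 1.84 and 2.28 in *flpl1*, against 4.93, 3.53 and 4.19 in Col-0. Its log2 was lower in every *flpl1* library, by 1.25 on average (two-sided exact permutation p = 0.1, the minimum for 3 against 3); this ratio was chosen after the values were seen.

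*SUVH4* (Chr. 5, 4501447 to 4506188, plus strand), which makes the histone mark that CMT3 binds, had 4.04, 3.09 and 3.12 FPKM in *flpl1*, against 2.57, 3.25 and 3.86 FPKM in Col-0. The groups overlapped, and the log2 fold change was 0.24 with a 95% interval of -0.22 to 0.71 (edgeR's quasi-likelihood test, adjusted p = 0.321). *DRM2* (Chr. 5, 4715253 to 4718704, minus strand) had 5.73, 5.80 and 5.98 FPKM in *flpl1*, against 6.10, 8.06 and 7.86 FPKM in Col-0. The *flpl1* plants were all below the Col-0 plants, but Col-0 replicate 1 by little, and the log2 fold change of -0.17 (95% interval -0.46 to 0.11) did not pass the test (adjusted p = 0.239). *DRM2* was thus the 1 methyltransferase gene of the 4 that was not called higher, and its interval ended below those of the other 3. The FPKM ratio of *DRM2* to *MET1* was 0.833, 1.04 and 1.26 in *flpl1*, against 4.52, 6.11 and 6.83 in Col-0. Its log2 differed by -2.48 (two-sided exact permutation p = 0.1, its minimum; a ratio also chosen after the values were seen).

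**Figure D2:**
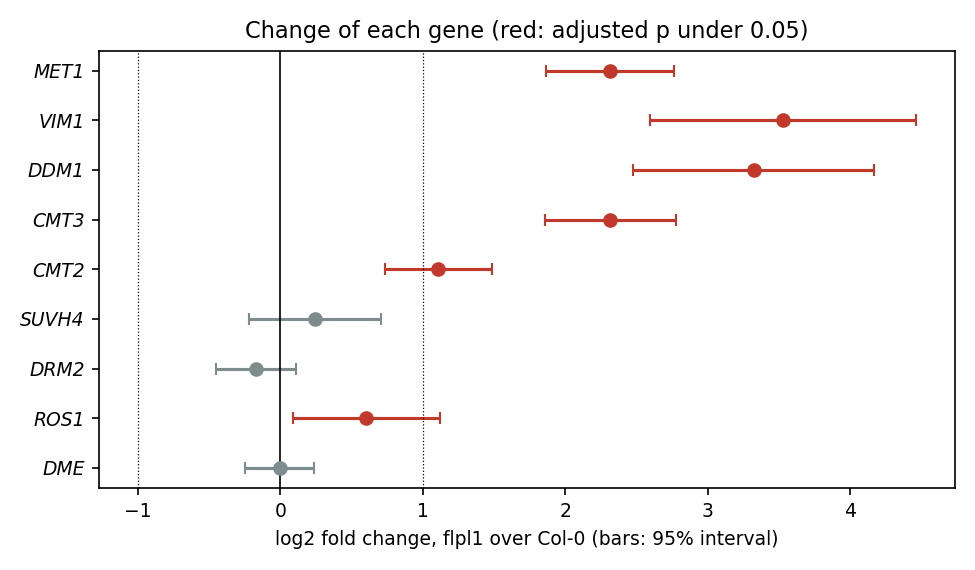
Log2 fold change of each gene, *flpl1* over Col-0, with its 95% interval from edgeR; red points have an adjusted p under 0.05, and the dotted lines mark a 2-fold change in either direction. The intervals of *SUVH4*, *DRM2* and *DME* include 0, and that of *ROS1* starts at 0.09.

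*ROS1* (Chr. 2, 15308021 to 15314807, minus strand) had 7.60, 12.37 and 10.75 FPKM in *flpl1*, against 8.29, 6.30 and 7.63 FPKM in Col-0. In FPKM, *flpl1* replicate 1 lay below 2 of the Col-0 plants, so the groups overlapped. The log2 fold change was 0.60 (SE 0.22, 95% interval 0.09 to 1.12), just past the threshold (edgeR's quasi-likelihood test, Benjamini-Hochberg adjusted p = 0.0459). The call did not hold when single plants were left out: the adjusted p was 0.156 without *flpl1* replicate 2, 0.0968 without *flpl1* replicate 3, 0.132 once Col-0 replicate 2 was dropped and 0.103 once Col-0 replicate 3 was. Over all alternatives tried it ranged from 0.0176 to 0.43, and with limma on log2(FPKM + 1) it was 0.109.

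*ROS1* was the only one of the 9 genes on Chr. 2, the chromosome with the additional copy. The 2848 tested genes of Chr. 2 had a median log2 fold change of 0.55 (quartiles -0.07 and 1.35), and the 15709 tested genes of the other nuclear chromosomes had -0.10. *ROS1* lay 0.05 above the Chr. 2 median, with 52.1% of the Chr. 2 genes below it, and a 1.5-fold difference is 0.585 on this scale. The 5 DEGs lie on Chr. 1, 4 and 5.

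**Figure D3:**
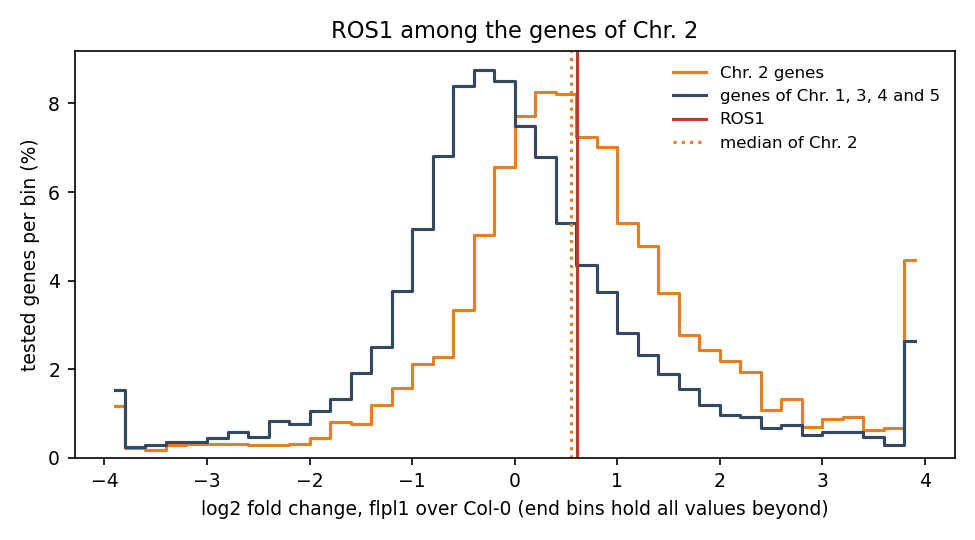
Distribution of log2 fold changes, *flpl1* over Col-0, for the tested genes of Chr. 2 (orange) and of Chr. 1, 3, 4 and 5 (dark), as percent of genes per bin. The lines of *ROS1* (0.60) and of the Chr. 2 median (0.55) nearly coincide.

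*DME* (Chr. 5, 1309193 to 1318401, plus strand) had 9.12, 9.58 and 10.73 FPKM in *flpl1*, against 10.37, 11.23 and 11.12 FPKM in Col-0. With 1340 to 1663 counts in *flpl1* and 1510 to 1822 in Col-0 it was the most counted of the 9 genes. Its log2 fold change was -0.01 with a narrow 95% interval of -0.25 to 0.24 (edgeR's quasi-likelihood test, adjusted p = 0.966), and the sign turned under 4 of the alternatives. Among the other glycosylase genes, *DML2* and *DML3* had log2 fold changes of -0.19 and 0.25 and did not pass the test; both were named after their values were seen.

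The order of the levels differed between the groups. In *flpl1*, *ROS1* and *CMT2* (10.2 FPKM each) and *DME* (9.81) stood apart from the rest, whose means ran from *DRM2* (5.84), *CMT3* (5.74) and *MET1* (5.73) to *VIM1* (3.68), *SUVH4* (3.42) and *DDM1* (3.07), and among these each gene overlapped the next. In Col-0 the order was *DME* (10.9 FPKM), *ROS1* (7.41), *DRM2* (7.34), *CMT2* (5.26), *SUVH4* (3.23), *CMT3* (1.29), *MET1* (1.27), *VIM1* (0.353) and *DDM1* (0.33). There only *ROS1* with *DRM2*, *CMT3* with *MET1* and *VIM1* with *DDM1* overlapped as neighbours. In Col-0 *MET1* was thus well below *DRM2*, and in *flpl1* their ranges met.

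To set erasers against writers within a library, the FPKM ratio of *ROS1* to *MET1* was taken, which does not depend on library scaling. It was 1.105, 2.22 and 2.27 in *flpl1*, against 6.14, 4.77 and 6.63 in Col-0, which on the log2 scale is 0.83 ± 0.59 for *flpl1* and 2.53 ± 0.25 for Col-0 (SD over 3 libraries; two-sided exact permutation p = 0.1, its minimum). Every *flpl1* library was below every Col-0 library, by 1.71 on average. The summed level of *ROS1* and *DME* over that of *MET1*, *CMT2*, *CMT3* and *DRM2* was 0.624, 0.791 and 0.765 in *flpl1*, against 1.39, 1.02 and 1.25 in Col-0. The *ROS1* and *DME* sum was thus the smaller in each *flpl1* library and the larger in each Col-0 library. The log2 of the ratio differed by -0.75 (two-sided exact permutation p = 0.1, its minimum). The other glycosylase genes were left out of it. *DML2* had 3.41, 3.46 and 3.55 FPKM in *flpl1*, against 3.75, 5.16 and 4.36 in Col-0. *DML3* had 7.23, 6.35 and 6.34 FPKM in *flpl1*, against 4.99, 7.16 and 6.51 in Col-0. Which sum is the smaller thus depends on the genes taken.

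**Figure D4:**
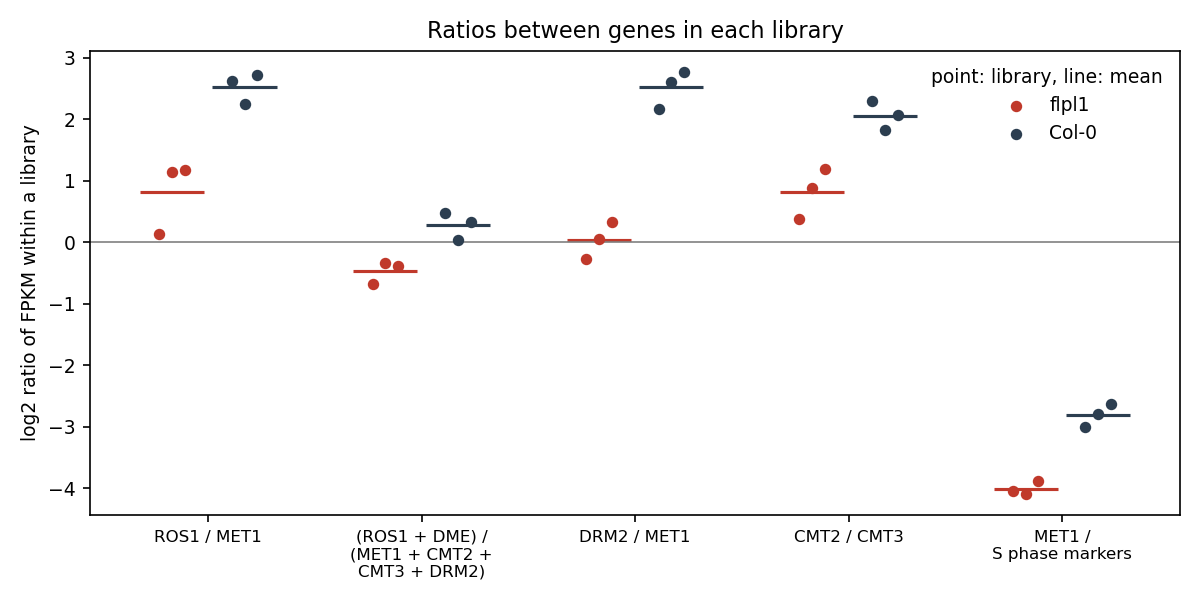
Log2 ratios of FPKM between genes within each library, for *flpl1* (red, left) and Col-0 (dark, right); points are libraries and lines are means. In each of the 5 ratios every *flpl1* library is below every Col-0 library. The ratios of *CMT2* to *CMT3*, *DRM2* to *MET1* and *MET1* to S phase markers were chosen after the values were seen. All but that of *CMT2* to *CMT3* hold *MET1*, so they are not independent.

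Several of these genes act at replicating DNA, so markers of dividing cells were read beside them. All 11 S phase markers (*MCM2* to *MCM7*, *PCNA1*, *PCNA2*, *CDT1A*, *CDC6*, *TSO2*) were DEGs higher in *flpl1*, beside 19.8% of all tested genes, with a median log2 fold change of 4.62. Of them, *PCNA1* (2, 1 and 1 counts in Col-0) and *MCM6* (8, 5 and 3) passed the filter on low counts through *flpl1* alone. The Col-0 counts of *MCM2* (24, 21 and 8), *MCM3* (21, 23 and 5) and *MCM4* (25, 14 and 5) would not have passed by themselves either. Nor would those of *MCM7* (15, 2 and 7) and *CDT1A* (15, 10 and 9). The fitted values of these genes are uncertain, and the median leans on genes admitted by the group where they were high. The summed level of the 11 markers was 113.78, 95.29 and 70.07 FPKM in *flpl1*, against 10.82, 9.17 and 7.08 FPKM in Col-0. All 5 mitosis markers were DEGs too, with a median of 3.94 and sums of 9.33 to 18.47 FPKM in *flpl1* and of 1.41 to 1.74 FPKM in Col-0. Among these, *CDKB1;1* (2, 2 and 1 counts in Col-0) and *CYCB1;1* (4, 4 and 0) also passed the filter through *flpl1* alone. The Col-0 counts of *CDKB2;1* (12, 8 and 10) and *KNOLLE* (15, 11 and 7) would not have passed by themselves either. Within *flpl1*, replicate 1 was the highest and replicate 3 the lowest for *MET1*, *CMT3*, *VIM1* and the S phase sum, *DDM1* was highest in replicate 2 and lowest in replicate 3, and *CMT2* and *ROS1* were lowest in replicate 1. The part of dividing cells in the levels of *MET1*, *VIM1*, *DDM1* and *CMT3* was not tested. The log2 fold change of *MET1* (2.31) was above those of *PCNA2* (2.26), *CDC6* (1.62) and the mitosis marker *CDKB2;2* (1.51) and below those of the other markers of both lists. Against the S phase sum *MET1* was lower in *flpl1*: the ratio of *MET1* to the summed S phase markers had a log2 of -4.01 ± 0.11 for *flpl1* and -2.81 ± 0.19 for Col-0 (SD over 3 libraries; two-sided exact permutation p = 0.1, its minimum; chosen after the values were seen).

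E2F factors switch on S phase genes through short words, and 4 such words (TTTCCCGC, TTTGGCGC, TTTGCCGC and TTTCGCGC, on either strand) were searched in the 300 bases before the deposited start of each gene. They were found for 2 of the 9 genes, *CMT3* and *ROS1*, for 8 of the 11 S phase markers and for 2.5% of 32032 nuclear genes. The sites of both genes are shown with that of *MCM5*, a subunit of the replicative helicase, to set them beside a marker. They are read 5′ to 3′ on the strand of the gene from RefSeq's TAIR10.1, with the word in capitals; all 3 genes are on the minus strand.
*CMT3*, chr1:26253649-26253673: cccatcacTTTGGCGCttatgtgac
*ROS1*, chr2:15314821-15314845: gtaaaactTTTCCCGCcaaccaaac
*MCM5*, chr2:3527503-3527527: cccatcagTTTCCCGCcacattgtt
The word begins 80 bases before the start of *CMT3*, 30 before that of *ROS1* and 59 before that of *MCM5*. *CMT3* was 4.98-fold higher in *flpl1* and *ROS1* 1.52-fold, while *MET1*, *VIM1* and *DDM1*, whose log2 fold changes were 2.31, 3.53 and 3.32, held none of the 4 words in the window. Other forms of the E2F site were not searched, so a gene without a word may still hold a site. With the start taken from whichever of the deposited and RefSeq annotations reached farther out, 1 of the 9 genes (*ROS1*), 5 of the 11 markers and 2.28% of the nuclear genes held a word.

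Over the 6 libraries, the 5 genes with a profile nearest to that of *MET1* among 18637 compared, by root mean square distance of centred log2 CPM, were *ERD3* (0.0176), *TXND9* (0.0873), *CRF1* (0.0906), *EMB3147* (0.0956) and AT5G52650 (0.0990). The log2 CPM had a prior count of 2, which shrinks low genes: *CRF1*, at 0.44 to 0.78 FPKM in *flpl1* and 0.04 to 0.08 FPKM in Col-0, had a fitted log2 fold change of 3.36, so it was near to *MET1* on the shrunken scale and not in its fold. *ERD3* had 39.31, 31.47 and 27.68 FPKM in *flpl1*, against 7.68, 7.59 and 6.52 FPKM in Col-0, the same order of plants within *flpl1* as *MET1*. Nearest to *ROS1* were *ABCC11* (0.0959), AT1G22910 (0.0961), *MIPS3* (0.0966), *GRF2* (AT1G78300, 0.0973) and *EFE* (0.105), none of them on Chr. 2. Like *ROS1*, *EFE*, which encodes an ethylene-forming enzyme, was lowest of the *flpl1* libraries in replicate 1, with 98.98, 128.35 and 123.50 FPKM in *flpl1*, against 90.33, 73.77 and 82.79 FPKM in Col-0. The orders of plants that *ERD3* and *EFE* share with *MET1* and *ROS1* follow from choosing them by profile in these same libraries.

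The close relatives of the 9 genes were read from a list of 15, of which 8 had enough counts to test; 4 were DEGs, all higher in *flpl1*, where 19.8% of all tested genes were, and the median log2 fold change was 1.14. *VIM2*, 1 of the 4, passed the filter on low counts through *flpl1* alone. The Col-0 counts of *VIM3* (12, 8 and 10), also among the 4, would not have passed by themselves either. *VIM3* (3.38), *ORTHL* (2.12) and *SUVH5* (2.02), relatives of *VIM1* and *SUVH4*, had adjusted p-values of 0.000358, 0.000385 and 0.00166 (edgeR's quasi-likelihood test). *VIM2* had 24, 12 and 11 counts in *flpl1* and none in Col-0, at least 15.9-fold higher with Col-0 set at 3 counts over the group, and the median of the list was the same with *VIM2* at that bound. *VIM2* and *VIM4* are 97.9% identical over 2432 bp, so its value is uncertain. The others tested were *DML2*, *DML3*, *DRM3* and *SUVH6*, between -0.22 and 0.25, and 1496 bp of *SUVH6* overlap an opposite-strand gene. Of the 7 genes not tested, *MET2*, *CMT1* and *VIM4* had at most 3 counts in a library, and *MET2b*, *MEE57*, *DRM1* and *VIM5* had none. *MET1*, *CMT3*, *CMT2* and *DRM2* were thus the listed methyltransferase genes with more than 3 counts in a library, beside *DRM3*, a catalytically inactive partner of DRM2.

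RNA-directed DNA methylation, in which small RNAs guide DRM2, was read from 20 genes, 18 of them tested. Of these, 8 were changed and higher, beside 30.9% of all tested genes, and 4 of them were DEGs, a share near the 19.8% of all tested genes. Another 1 was changed and lower, and the median log2 fold change was 0.45. The DEGs were *AGO4* (2.16), *AGO6* (1.76) and *SUVH2* (1.21) on Chr. 2 and *DMS3* (1.52) on Chr. 3. *AGO4*, which encodes the main Argonaute of this pathway, had 22.38, 23.65 and 22.87 FPKM in *flpl1*, against 4.76, 7.5 and 4.96 FPKM in Col-0 (edgeR's quasi-likelihood test, adjusted p = 9.59e-05). The remaining changed genes, named after their values were seen, were *NRPE1* (0.88), *DRD1* (0.82), *IDN2* (0.74), *RDM1* (0.72) and, lower in *flpl1*, *SUVH9* (-0.35). In all, 5 of the 20 genes are on Chr. 2, all of them higher in *flpl1*. Most tested genes of Chr. 2 were higher too, with a median log2 fold change of 0.55 and a lower quartile of -0.07. The median of the 13 listed genes tested outside Chr. 2 was 0.26. *RDM1* missed the threshold without Col-0 replicate 3 or *flpl1* replicate 3 (adjusted p = 0.0517 and 0.0588, range over the alternatives 0.00665 to 0.224), and *SUVH9* without *flpl1* replicate 2 or 3 or Col-0 replicate 3 (0.101, 0.0929 and 0.0909, range 0.00965 to 1.0). *SUVH9* also missed it with libraries centred outside Chr. 2 (0.0913), and *NRPE1* with limma on log2(FPKM + 0.1) (0.0514, range over its alternatives 0.000381 to 0.0661). Without Col-0 replicate 1, *CLSY2* and *CLSY3* became DEGs lower in *flpl1* (adjusted p = 0.0382 and 0.0481).

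**Figure D5:**
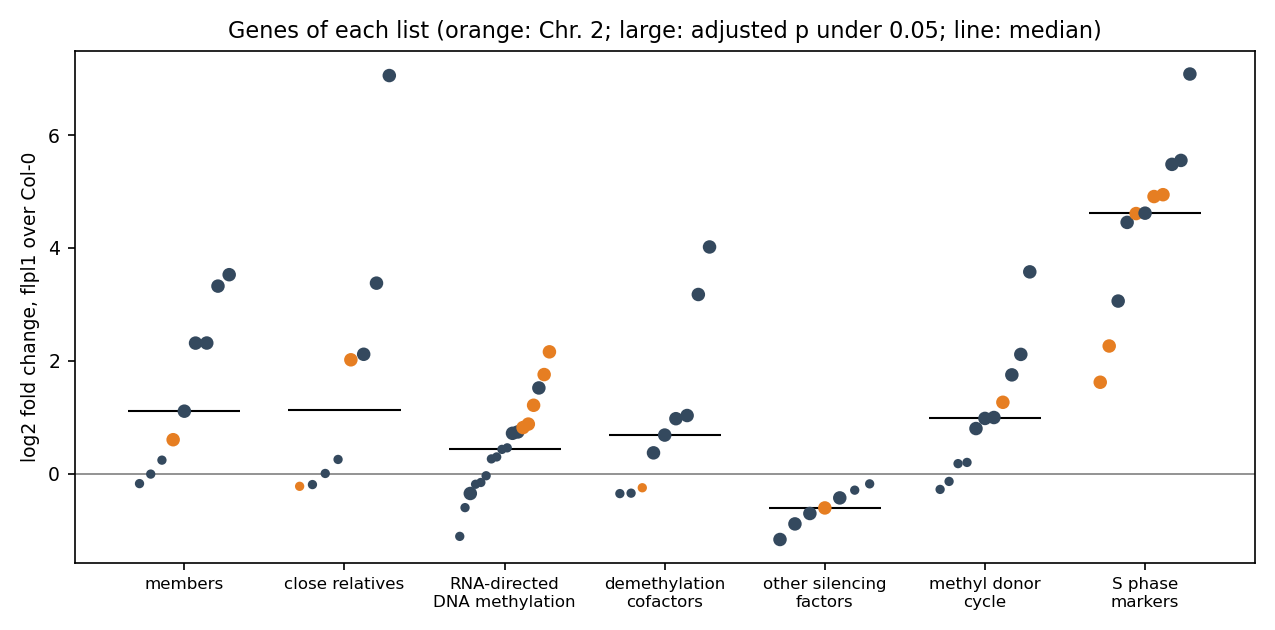
Log2 fold change, *flpl1* over Col-0, of each tested gene of the 9 writers and erasers, of 5 lists of related genes and of the S phase markers; large points have an adjusted p under 0.05, orange points are on Chr. 2 and lines are medians. The highest relative is *VIM2*, whose fitted value is not a bound since Col-0 had no count. The S phase markers have the highest median (4.62), and several of them passed the filter on low counts through *flpl1* alone.

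The partners of ROS1 and DME were read from 10 genes, 9 of them tested. Of these, 6 were changed and higher (against 30.9% of all tested genes), 3 of them DEGs (against 19.8%), none was lower, and the median log2 fold change was 0.69. *ZDP*, which encodes a phosphatase that trims the DNA end left after ROS1 cuts, had 5.02, 6.03 and 4.94 FPKM in *flpl1*, against 0.60, 0.71 and 0.65 FPKM in Col-0 (log2 fold change 3.18; edgeR's quasi-likelihood test, adjusted p = 6.96e-05). The other DEGs were *IDM3* (4.02, at 0.08 to 0.16 FPKM in Col-0) and the endonuclease gene *APE1L* (1.03), which fell under 2-fold without *flpl1* replicate 1 (0.93). *IDM3* had 3, 3 and 5 counts in Col-0 and passed the filter on low counts through *flpl1* alone. *LIG1* (0.98), *MBD7* (0.69) and *IDM1* (0.37), named after their values were seen, were the further changed genes. *IDM1* missed the threshold without any one of *flpl1* replicates 1 and 2 and Col-0 replicates 1, 2 and 3 (adjusted p between 0.0516 and 0.0845, range over the alternatives 0.0124 to 1.0). *MBD7* missed it without *flpl1* replicate 2 or 3 or Col-0 replicate 1 or 2 (between 0.0642 and 0.121, range over the alternatives 0.0195 to 0.302). Of *IDM1*, 219 bp overlap an opposite-strand gene.

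The methyl donor cycle makes S-adenosylmethionine and clears S-adenosylhomocysteine, the by-product that inhibits methyltransferases. Of its 11 genes, all tested, 7 were changed and higher (against 30.9% of all tested genes), 4 of them DEGs (against 19.8%), none was lower, and the median log2 fold change was 0.98. *SAHH2*, a gene of the hydrolase that clears the by-product, had 93.59, 115.40 and 75.22 FPKM in *flpl1*, against 8.58, 8.23 and 9.61 FPKM in Col-0 (log2 fold change 3.58; edgeR's quasi-likelihood test, adjusted p = 7.07e-05). The adenosine kinase gene *ADK1* (2.11) and the S-adenosylmethionine synthetase genes *SAM4* (1.75) and *SAM3* (1.27) were the other DEGs. *SAHH1* (0.997), *ADK2* (0.98) and *MS1* (0.80), named after their values were seen, were changed by just under 2-fold or less.

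The list of other silencing factors held 7 genes, all tested, but *IBM1*, *SUVH1* and *SUVH3* in it act against silencing. None of the 7 was higher and 5 were changed and lower, where 30.7% of all tested genes were. Of these, 1 was a DEG, a share near the 14.4% of all tested genes. *SUVH1* and *SUVH3* did not pass the test, and the median log2 fold change was -0.61. The linker histone gene *H1.1* had 52.77, 53.45 and 55.83 FPKM in *flpl1*, against 129.57, 130.71 and 141.49 FPKM in Col-0 (log2 fold change -1.16; edgeR's quasi-likelihood test, adjusted p = 0.000199). The others, named after their values were seen, were the histone deacetylase gene *HDA6* (-0.89), the histone demethylase gene *IBM1* (-0.70), *H1.2* (-0.61) and *MOM1* (-0.43). *MOM1* missed the threshold without *flpl1* replicate 1 or Col-0 replicate 2 (adjusted p = 0.0514 and 0.0506, range over the alternatives 0.00647 to 0.943).

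Of 8 genes known to respond to methylation or its removal, only *QQS* had enough counts. It had 39.26, 15.66 and 25.98 FPKM in *flpl1*, against 27.29, 26.64 and 20.08 FPKM in Col-0, with overlapping groups and a log2 fold change of 0.27 that did not pass the test (edgeR's quasi-likelihood test, adjusted p = 0.484). *SDC*, *FWA*, *MEA* and *RMG1* had at most 6 counts in a library, and *FIS2* and *DOGL4* had none. *EPF2*, a stomatal signal whose promoter is kept unmethylated by ROS1, had 7, 19 and 2 counts in *flpl1* against 1, 0 and 0 in Col-0 and was not tested.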

How the data were processed

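The authors, per the labels and the methods of the paper, cleaned the paired reads with Cutadapt 1.9.1, mapped them on TAIR10 by HISAT2 and obtained gene counts by HTSeq 0.6.1; the annotation version and the use of strand are not given in the sources used here. The deposited count is the raw number of reads per gene. The deposited FPKM is that count over exonic size and library total, which 100% of values matched within 0.01 when recomputed.

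Groups came from the sample titles, 3 libraries each. Counts were tested with edgeR 4.0.16 (TMM, filterByExpr, quasi-likelihood test, Benjamini-Hochberg adjustment over all tested genes) in R 4.3.3. Ratios of FPKM within libraries were compared by exact permutation tests. The biological coefficient of variation was 22.2%. With 3 plants per group, edgeR's p-values set group differences against the spread between plants, estimated partly over all tested genes. At these library totals, 3 counts are 0.122 to 0.154 CPM. Fold bounds cover counting error only. Alternatives were DESeq2 1.42.0, limma 3.58.1, other scalings and filters, a test against 1.5-fold, a replicate block and each plant left out.

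Named were all 9 genes, every DEG of the related lists and the 5 nearest profiles to *MET1* and *ROS1*. The genes, lists and tests were chosen with earlier results of these data known. The fit was tested on simulated counts. Python 3.11.15 and matplotlib 3.10.9 drew the plots. The symbols of all 109 listed genes were looked up in RefSeq. The genome sequencing, cytometry and qPCR of the study were not analysed here.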

Additional observations from a re-analysis of the deposited data

How the results depend on the processing

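The counts of changed genes and of DEGs among the 9 genes stayed at 5 to 6 and at 4 to 5 under 16 alternatives, and *MET1*, *VIM1*, *DDM1*, *CMT3* and *CMT2* kept their direction and an adjusted p under 0.05 in each; the DEG lost was *CMT2*, under 2-fold with limma on log2(FPKM + 1) (0.83) and on log2(FPKM + 0.1) (0.93). *ROS1* lost its call under 8 of them: limma on log2(FPKM + 1) and on log2(FPKM + 0.1) (0.40 and 0.44, adjusted p = 0.109 for both), the test against 1.5-fold (adjusted p = 0.43), the replicate block (0.60, adjusted p = 0.0995) and the 4 left-out plants given above, the cause not tested. *DME* turned sign when libraries were centred outside Chr. 2 (0.091), under the FPKM filter of 1 (0.021), and when replicate 1 of either group was dropped, always uncalled; with each plant left out in turn its log2 fold change ran from -0.047 to 0.042.

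DEG counts of the lists moved by over 1.5 times in these cases: relatives to 2 with limma on log2(FPKM + 1) and under the FPKM filter of 1, which understate or drop low genes by construction; RNA-directed DNA methylation to 2 higher with limma on log2(FPKM + 1), and to 2 lower without Col-0 replicate 1, against 0 without each other plant; other silencing factors to 2 lower with limma on log2(FPKM + 0.1). The differences in log2 ratios on log2(FPKM + 1) were -1.15 for *ROS1* to *MET1*, -1.67 for *MET1* to S phase markers, -0.74 for *CMT2* to *CMT3* and -1.83 for *DRM2* to *MET1*. The test against 1.5-fold also ended the calls of *NRPE1*, *DRD1*, *RDM1*, *SUVH9*, *IDN2*, *IDM1*, *MBD7*, *IBM1*, *MOM1*, *H1.2* and *MS1* (adjusted p from 0.0661 to 1.0). Unscaled FPKM moved the median of all genes to -0.12 with 1 added and -0.14 with 0.1 added.

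The replicate numbers did not pair the plants (correlations of deviations 0.03, -0.12 and 0.10). With the replicate block, DEGs numbered 3656 higher and 2623 lower, against 3697 and 2679 without it. Depth limits *VIM1*, *DDM1* and *VIM2* in Col-0, with at most 31 counts per library.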
